A study of Mus musculus with 10 samples.

Results

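Inmt, Ces1d, Fmo1, Fmo2, Fmo5, Adh1, Aox1 and Ephx1 are 8 of the 55357 gene identifiers counted in Cd163-/- mouse hearts and in cultured mouse peritoneal macrophages. They encode enzymes that chemically alter small molecules: a methyltransferase, a carboxylesterase, flavin-containing monooxygenases, an alcohol dehydrogenase, an aldehyde oxidase and an epoxide hydrolase. The set was put together with results of these data in view. Inmt and Ces1d were picked because they were higher in IL-10 hearts, and Fmo2 because it was higher in knockout macrophages, so these 3 differences are given as values without a test.

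Poly(A) RNA was sequenced from whole hearts and from macrophages, and the study asked about CD163, a scavenger receptor of macrophages, and the inflammation-damping cytokine interleukin-10 (IL-10) in pressure overload of the heart. The heart groups were IL-10 (n = 3) and saline (n = 3). Every heart came from a Cd163-/- male mouse on a C57BL/6 background, and mice of the IL-10 group were given recombinant IL-10 subcutaneously (50 µg/kg/day) for weeks after transverse aortic constriction, an operation done at 8 weeks of age that narrows the aorta. The labels of single hearts do not state the operation, and no wild-type or sham-operated heart was analysed here. The macrophage groups were Cd163-/- (n = 2) and wild type (n = 2). Both were lavaged after an injection of thioglycolate, which irritates the peritoneum and draws macrophages there, were selected by adherence, and spent 48 h in 100 nM dexamethasone, a glucocorticoid drug, so no untreated macrophages stand beside them. The labels do not tell whether the replicates are different animals or cultures. The p-values therefore speak only of the spread among these libraries, which may be technical.

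Many enzymes of this kind make foreign and endogenous compounds more polar so that they can be further processed or excreted. Flavin-containing monooxygenases and aldehyde oxidase add oxygen, carboxylesterases split esters, epoxide hydrolase adds water to reactive epoxides, and methyltransferases pass on the methyl group of S-adenosylmethionine. The liver is best known for them, but several are also made in lung, fat, kidney and heart.

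Total counts ran from 14.1 to 14.8 M (M for mega) in IL-10 hearts, from 13.5 to 14.9 M in saline hearts, from 17.2 to 18.6 M in knockout macrophages and from 16.7 to 17.9 M in wild-type macrophages. Cd163 had 9 and 14 counts in knockout macrophages, against 352 and 205 in wild-type macrophages, a log2 fold change of -4.79 with a standard error (SE) of 0.39 and an edgeR adjusted p of 0.0013. In the hearts, all labelled Cd163-/-, it had 37, 43 and 34 counts with IL-10 and 45, 47 and 57 with saline. Macrophage markers such as Adgre1 (622 ± 32.8 CPM in knockout and 1086 ± 189 CPM in wild-type macrophages, SD, n = 2 each) and cardiomyocyte markers such as Myh6 (6649 ± 397 CPM in IL-10 and 6361 ± 1331 CPM in saline hearts, SD, n = 3 each) were abundant in the samples labelled for them. CPM are counts per M counts of the library after TMM scaling, and 3 counts correspond to 0.192 to 0.22 CPM in a heart and 0.149 to 0.191 CPM in a macrophage library.

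Promoter entries were matched for 6 of the 8 genes, not for Ces1d and Fmo1. Sequence is shown for 4 of the 6: Inmt, which had the largest fold change of the 8 in hearts, Adh1, which rose in hearts, Fmo2, which was higher in both comparisons, and Ephx1, which rose in macrophages and did not pass the test in hearts. Of the 250 bases before the start of Fmo5, which also rose in macrophages, only 35 lie outside exons, and they are not shown. Nor is the sequence of Aox1, which did not pass the test in either comparison. Each line gives bases upstream of the start of the gene in RefSeq (GRCm38.p6), 5′ to 3′ on the strand of the gene, without the stretches that GENCODE M21 assigns to exons. Capitals mark TATAAA on the strand of the gene (the letters of a TATA box, wherever they lie) and AGAACA on either strand (one arm of a glucocorticoid receptor site, shown since all the macrophages received dexamethasone).
Inmt: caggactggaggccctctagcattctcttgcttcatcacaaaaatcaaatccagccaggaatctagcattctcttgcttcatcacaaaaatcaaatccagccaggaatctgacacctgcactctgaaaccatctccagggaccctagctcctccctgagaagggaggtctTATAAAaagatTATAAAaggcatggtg
Fmo2: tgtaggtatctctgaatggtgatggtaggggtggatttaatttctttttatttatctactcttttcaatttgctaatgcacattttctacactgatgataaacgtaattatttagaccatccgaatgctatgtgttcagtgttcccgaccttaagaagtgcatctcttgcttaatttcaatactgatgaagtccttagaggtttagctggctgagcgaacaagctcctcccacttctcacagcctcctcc
Adh1: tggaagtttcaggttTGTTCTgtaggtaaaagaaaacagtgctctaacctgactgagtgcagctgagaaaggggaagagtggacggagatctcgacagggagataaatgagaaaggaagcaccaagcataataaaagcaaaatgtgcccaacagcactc
Ephx1: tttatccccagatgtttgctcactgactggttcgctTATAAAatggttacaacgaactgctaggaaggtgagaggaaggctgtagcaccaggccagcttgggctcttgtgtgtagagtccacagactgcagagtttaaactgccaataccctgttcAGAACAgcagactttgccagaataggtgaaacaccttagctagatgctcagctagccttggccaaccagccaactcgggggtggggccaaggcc

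The Inmt stretch is chr6:55175044-55175240 on the minus strand, that of Fmo2 (before the first of its starts in the table) chr1:162898759-162899008 on the minus strand, that of Adh1 chr3:138277335-138277493 on the plus strand, and that of Ephx1 chr1:181017570-181017819 on the minus strand. For Inmt, Adh1 and Ephx1 the RefSeq start lies inside the span that GENCODE gives the gene. Of all 32851 windows of 250 bases before a start in the table, 7.59% hold TATAAA and 16.1% hold AGAACA. Inmt holds TATAAA at 2 places, Ephx1 holds 1 TATAAA and 1 AGAACA, Adh1 holds 1 AGAACA on the opposite strand, and the Fmo2 stretch holds neither. The window before the second Fmo2 start in the table, with 227 exon bases, holds 1 AGAACA. The letters GGGCGG on either strand (a GC box, in 32.7% of windows) and TGACNNNGC on either strand (an antioxidant response element, in 10.2%) were also searched and are in none of these 4 stretches. A match describes letters only, and its absence says nothing about a factor.

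In the IL-10 hearts, Inmt (6.96-fold) and Ces1d (3.09-fold) were higher than in saline hearts, Adh1 (2.39-fold), Fmo2 (2.02-fold) and Fmo1 (1.30-fold) rose, while Fmo5, Aox1 and Ephx1 did not pass the test. All 8 genes passed the filter on low counts in hearts. Of the 6 genes that were not picked on these hearts, 3 rose and 0 fell at an edgeR adjusted p under 0.05, beside 6.86% of all 13718 tested genes called higher and 6.7% called lower (13.6% in either direction). Of these 3, Fmo1 was not called with upper-quartile scaling or with library size alone. At an unadjusted p under 0.05, 4 of the 6 were higher and 0 lower, and neither DESeq2 nor limma-voom called any of the 8 lower. The values of the IL-10 libraries lay wholly above those of the saline libraries for 5 of these 6, beside 15.7% of all tested genes.

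Inmt encodes indolethylamine N-methyltransferase, which methylates amines such as tryptamine. The gene (ENSMUSG00000003477) lies at chr6:55170626-55175043. It had 116, 79 and 54 counts in IL-10 hearts, against 9, 13 and 14 in saline hearts, or 5.87 ± 2.11 CPM with IL-10 and 0.834 ± 0.154 CPM with saline (SD, n = 3 each). Each IL-10 heart was above every saline heart, and the IL-10 hearts differed among themselves more than the saline hearts did. The log2 fold change was 2.80, and it stayed between 2.52 and 3.05 with any library left out.

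Ces1d encodes a carboxylesterase of the endoplasmic reticulum that also hydrolyses stored triglyceride in mouse liver and fat. The gene (ENSMUSG00000056973) lies at chr8:93166068-93197838, among other Ces1 genes. It had 774, 825 and 598 counts in IL-10 hearts, against 210, 235 and 281 in saline hearts, or 52.0 ± 9.36 CPM with IL-10 and 16.8 ± 1.34 CPM with saline (SD, n = 3 each). The groups were far apart, and the lowest IL-10 heart, at 42.0 CPM, was above the highest saline heart, at 18 CPM. The log2 fold change was 1.63, between 1.50 and 1.77 with any library left out.

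The neighbouring carboxylesterase genes were near 0 in the same hearts. Ces1b and Ces1c had 0 counts in every heart, Ces1e had 6, 3 and 5 with IL-10 and 2, 0 and 3 with saline, and Ces1f had 0, 2 and 0 with IL-10 and 0, 0 and 4 with saline. Of the stretches of 50 bases in the Ces1d transcripts, 1.08% also occur in transcripts of other genes, among them Ces1b, Ces1g and Ces1f.

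The flavin-containing monooxygenases oxidise nitrogen and sulphur atoms of small molecules with NADPH and oxygen. Fmo2, known as the form most abundant in the lung of many mammals, lies at chr1:162874317-162898726 next to Fmo1. It had 541, 590 and 697 counts in IL-10 hearts, against 221, 315 and 391 in saline hearts, or 43.2 ± 5.83 CPM with IL-10 and 21.4 ± 4.64 CPM with saline (SD, n = 3 each). No IL-10 heart came as low as the highest saline heart, at 25.1 CPM. Fmo2 rose by 1.01 on the log2 scale (SE 0.15, edgeR adjusted p = 0.000501), and the call held with any library left out, at 0.85 to 1.15.

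Fmo1, at chr1:162829561-162866610, had 765, 729 and 810 counts in IL-10 hearts, against 572, 615 and 606 in saline hearts, or 54.4 ± 2.2 CPM with IL-10 and 41.8 ± 3.00 CPM with saline (SD, n = 3 each). The groups did not overlap, although the gap was narrower than for Fmo2. Its log2 fold change of 0.38 (SE 0.11) had an edgeR adjusted p of 0.0268. Fmo1 no longer passed when saline replicate 1 (0.38, adjusted p = 0.0925) or 3 (0.34, adjusted p = 0.096) was left out, or IL-10 replicate 2 (0.39, adjusted p = 0.0765) or 3 (0.36, adjusted p = 0.0541). The call was also lost with upper-quartile scaling (0.33, edgeR adjusted p = 0.0522) and with library size alone (0.32, edgeR adjusted p = 0.0825). Of the Fmo1 stretches of 50 bases, 7.02% also occur in other transcripts, mostly in Gm48161.

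Fmo5, which oxidises ketones more than nitrogen compounds, lies at chr3:97628804-97655282. It had 135, 131 and 146 counts in IL-10 hearts, against 114, 127 and 132 in saline hearts, or 9.74 ± 0.482 CPM with IL-10 and 8.69 ± 0.499 CPM with saline (SD, n = 3 each). The groups lay next to each other without overlap, at 9.32 CPM for the lowest IL-10 and 9.26 CPM for the highest saline heart, and the log2 fold change of 0.16 (SE 0.16) did not pass (edgeR adjusted p = 0.53). Other genes of the Fmo family were near 0: Fmo4, the neighbour of Fmo1, had 1, 0 and 3 counts with IL-10 and 1, 2 and 4 with saline, and Fmo6 and Fmo9 had at most 1 count in any heart. The ratio of Fmo2 to Fmo1 counts was 0.707, 0.809 and 0.86 in IL-10 hearts and 0.386, 0.512 and 0.645 in saline hearts, so the ratio was higher in every IL-10 heart.

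Adh1 encodes the class I alcohol dehydrogenase, which oxidises ethanol and retinol, and lies at chr3:138260991-138290698. It had 130, 143 and 129 counts in IL-10 hearts, against 84, 38 and 48 in saline hearts, or 9.52 ± 0.856 CPM with IL-10 and 4.0 ± 1.87 CPM with saline (SD, n = 3 each). The IL-10 hearts were close together, and saline replicate 1 was higher than the other saline hearts but below every IL-10 heart. Adh1 rose by 1.25 on the log2 scale (SE 0.25, edgeR adjusted p = 0.00378), and the call held with any library left out, at 1.06 to 1.70. A stretch of 136 exon bases lies opposite the gene Gm16559, and without strand the reads of such a pair cannot be told apart there.

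Aox1 encodes an aldehyde oxidase, which carries a molybdenum cofactor and also acts on nitrogen-containing rings, and lies at chr1:58029931-58106413. It had 277, 232 and 234 counts in IL-10 hearts, against 159, 218 and 223 in saline hearts, or 17.5 ± 1.40 CPM with IL-10 and 13.9 ± 2.15 CPM with saline (SD, n = 3 each). The groups did not overlap, but the lowest IL-10 heart, at 16.5 CPM, was close to the highest saline heart, at 15.9 CPM. The log2 fold change of 0.33 (SE 0.15) did not pass (edgeR adjusted p = 0.148).

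Ephx1, the microsomal epoxide hydrolase, lies at chr1:180976210-181020904. It had 483, 529 and 501 counts in IL-10 hearts, against 478, 609 and 564 in saline hearts, or 35.8 ± 2.80 CPM with IL-10 and 38.5 ± 5.13 CPM with saline (SD, n = 3 each). The groups overlapped, and the log2 fold change was -0.10 (SE 0.12, edgeR adjusted p = 0.618). Without saline replicate 2, the highest of the saline hearts, the value was 0.01 (edgeR adjusted p = 0.97). Summed over the 6 genes that were not picked on these hearts, the level was 161 to 177 CPM in IL-10 hearts and 119 to 140.1 CPM in saline hearts.

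**Figure D1:**
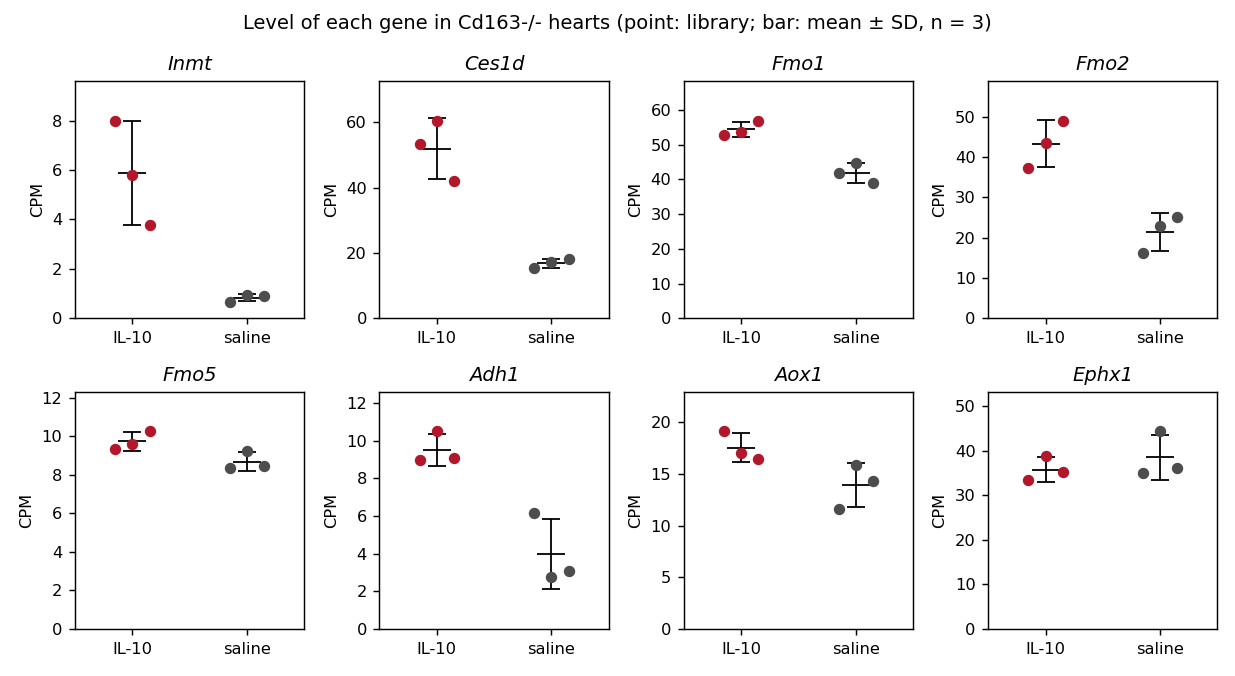
Level of each gene in CPM (vertical axes, from 0, with their own scales) in the 3 IL-10 hearts (red) and the 3 saline hearts (grey), each point a library and each bar the mean ± SD. The IL-10 points lie above the saline points in every panel but that of Ephx1, narrowly so for Fmo5 and Aox1.

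The hearts are bulk samples, in which fewer cells of a type and less RNA per cell cannot be told apart. Of 12 liver markers, 6 (Apoa1, Apob, Serpina1a, Fgb, Fga and Cyp3a11) had no count in any heart. Alb had 0, 1 and 0 counts with IL-10 and 2, 1 and 0 with saline, but Hp had 43, 50 and 59 with IL-10 and 52, 22 and 67 with saline. The summed level of the list was 7.59 to 10.1 CPM with IL-10 and 4.81 to 8.34 CPM with saline. Ttr was the 1 liver marker of 4 tested that rose, with 11, 15 and 15 counts with IL-10 and 2, 3 and 2 with saline. Of the 9 adipocyte markers, Lep was at 0 and Adipoq had 6, 10 and 0 counts with IL-10 and 3, 3 and 10 with saline. The summed adipocyte list was 400.5 to 469.8 CPM with IL-10 and 329 to 441 CPM with saline, and 0 of its 3 tested genes were called. Of the 9 lung and airway markers, 4 were at 0 and the sum was 0.422 to 1.10 CPM with IL-10 and 1.17 to 2.24 CPM with saline. Of the 12 fibroblast markers, 4 rose (Dcn, Dpt, Gsn and Smoc2) and 3 fell (Col1a1, Col1a2 and Mfap5), and their sum was 3120 to 3684 CPM with IL-10 and 2753 to 2973 CPM with saline. Among endothelial markers 0 of 10 rose and 2 fell, among cardiomyocyte markers 3 of 10 rose and 1 fell, among mural cell markers 0 of 9 rose and 3 fell, and among macrophage markers 0 of 12 rose and 1 fell. Of 5 tested mesothelial markers 0 rose and 1, Krt18, fell. That list summed to 11.5 to 13.8 CPM with IL-10 and 14.0 to 25.4 CPM with saline. Of 2 tested B cell and T cell markers and 8 tested mast cell and neutrophil markers, 0 were called. At an unadjusted p under 0.05 2 endothelial markers were higher and 5 lower, 1 mural marker was higher and 4 lower, and 0 macrophage markers were higher and 2 lower. The part of these cell types in the differences of the 8 genes was not tested.

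The other enzymes of the same pathways were read from lists. Among alcohol and aldehyde dehydrogenases, 5 of the 16 tested genes other than Adh1 rose and 0 fell in IL-10 hearts, with a median log2 fold change of 0.26, beside a median of -0.01 over all tested genes. Aldh2, the mitochondrial enzyme that clears acetaldehyde, was at 111 ± 7.29 CPM with IL-10 and 77.1 ± 7.28 CPM with saline (SD, n = 3 each), a log2 fold change of 0.53 (SE 0.11, edgeR adjusted p = 0.00514). Aldh4a1, of proline breakdown, rose by 0.74 (SE 0.13, edgeR adjusted p = 0.00177), and Aldh6a1, of valine breakdown, by 0.54 (SE 0.12, edgeR adjusted p = 0.0053). Aldh1a1, which makes retinoic acid, rose by 0.49 (edgeR adjusted p = 0.0229) and Aldh5a1, of GABA breakdown, by 0.56 (edgeR adjusted p = 0.0147). Without saline replicate 1 the calls of Aldh1a1 and Aldh5a1 were lost (edgeR adjusted p = 0.116 and 0.0861), and that of Aldh1a1 also without IL-10 replicate 1 (edgeR adjusted p = 0.11). Both were also lost with scaling by library size alone (edgeR adjusted p = 0.0846 for Aldh1a1 and 0.0501 for Aldh5a1).

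Of the 8 tested carboxylesterases and related esterases other than Ces1d, 0 were called by edgeR or limma-voom and 1 was called lower by DESeq2. Their median log2 fold change was -0.18, and at an unadjusted p under 0.05, 2 were lower and 0 higher. Among small-molecule methyltransferases, 1 of 9 tested genes other than Inmt rose. In the methionine and S-adenosylmethionine cycle, which supplies the methyl groups, 1 of 10 tested genes rose (Mat2b, a subunit of S-adenosylmethionine synthase, log2 fold change 0.40, edgeR adjusted p = 0.0284, lost without 4 of the 6 libraries at up to 0.124, with upper-quartile scaling at 0.053 and with library size alone at 0.0794).

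Among molybdenum enzymes (9 tested), epoxide hydrolases (3 tested) and conjugating enzymes (5 tested) edgeR, DESeq2 and limma-voom called 0 genes in hearts. At an unadjusted p under 0.05, 1 molybdenum enzyme gene other than Aox1 was higher, and in the other lists none passed. Mocs2, of molybdenum cofactor synthesis, had a log2 fold change of 0.34 (edgeR adjusted p = 0.0905) and Ephx2, the soluble epoxide hydrolase, of 0.24 (edgeR adjusted p = 0.205). Aox3, the neighbour of Aox1, had 4, 3 and 4 counts with IL-10 and 0, 6 and 9 with saline. Among xenobiotic cytochromes P450 and their partners, 0 of 15 tested genes rose (2 were higher at an unadjusted p under 0.05) and 2 fell: Cyp4b1 by 0.64 on the log2 scale (SE 0.14, edgeR adjusted p = 0.00781) and Cyb5r3, a cytochrome b5 reductase, by 0.56 (edgeR adjusted p = 0.0107). Cyb5r3 no longer passed when saline replicate 3 (edgeR adjusted p = 0.0666) or one of the IL-10 replicates 1 (0.0535) and 2 (0.0597) was left out.

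Of 17 tested genes in a list of nuclear receptors, sensors of foreign compounds and other transcription factors, 3 rose in IL-10 hearts and 0 fell. They were the transcription factors Cebpb (37.9 ± 3.66 CPM with IL-10 and 17.3 ± 1.15 CPM with saline, SD, n = 3 each, log2 fold change 1.13, edgeR adjusted p = 3.61e-05) and Cebpd (1.05, edgeR adjusted p = 0.000414) and the retinoid X receptor Rxra (0.62, edgeR adjusted p = 0.00172). Of 17 tested genes of triglyceride hydrolysis and lipid droplets, 5 rose and 0 fell. Dgat2, the last enzyme of triglyceride synthesis, rose by 1.04 (SE 0.15, edgeR adjusted p = 0.00049) and Fitm2, of droplet formation, by 0.59 (edgeR adjusted p = 0.00439). G0s2, an inhibitor of the lipase that Pnpla2 encodes, rose by 0.62 (edgeR adjusted p = 0.0183), Pnpla2 by 0.41 (0.0364) and the droplet coat gene Plin4 by 0.41 (0.0183). G0s2, Pnpla2 and Plin4 no longer passed when saline replicate 1 or one of the IL-10 replicates 1 and 2 was left out (edgeR adjusted p from 0.0508 to 0.198), nor G0s2 when saline replicate 3 was left out (0.0644). Pnpla2 was also lost with upper-quartile scaling (edgeR adjusted p = 0.0617) and, like Plin4, with library size alone (0.103 for Pnpla2 and 0.0634 for Plin4). The list then had 2 calls without saline replicate 1, 3 without either of those IL-10 libraries, and 9 without IL-10 replicate 3.

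The profiles nearest to that of Inmt over the 6 hearts, among 12136 protein-coding genes that averaged 1 CPM or more, were those of Scn4b, a sodium channel subunit (root mean square difference 0.388 in log2 CPM), Gsta3, a glutathione transferase (0.405), and Angptl7 (0.496). Scn4b averaged 25.2 ± 4.05 CPM with IL-10 and 6.46 ± 2.44 CPM with saline, Gsta3 22.6 ± 4.87 CPM with IL-10 and 5.62 ± 0.642 CPM with saline, and Angptl7 6.56 ± 1.69 CPM with IL-10 and 1.04 ± 0.398 CPM with saline (SD, n = 3 each). Nearest to Ces1d were Thrsp, a regulator of fat synthesis (0.211), Clec3b, the gene of tetranectin (0.226), and A530016L24Rik (0.226). Thrsp averaged 26.5 ± 5.27 CPM with IL-10 and 11.1 ± 1.53 CPM with saline (SD, n = 3 each). These genes were selected for their likeness, so the likeness is a description.

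Levels of different genes are compared as RPKM, counts per kilobase of exon and per M counts. In IL-10 hearts the order was Ces1d (22.0 ± 3.95 RPKM), Ephx1 (18.4 ± 1.44), Fmo1 (8.63 ± 0.35), Fmo2 (7.71 ± 1.04), Adh1 (4.26 ± 0.383), Inmt (3.67 ± 1.32), Aox1 (2.02 ± 0.162) and Fmo5 (1.72 ± 0.0849, SD, n = 3 for each gene). The values of the neighbours Ces1d and Ephx1, Fmo1 and Fmo2, and Adh1 and Inmt overlapped across the 3 hearts, although Fmo1 was above Fmo2 in each of them. In saline hearts Ephx1 was highest (19.7 ± 2.63 RPKM), followed by Ces1d (7.11 ± 0.566) and Fmo1 (6.64 ± 0.476), whose values overlapped, then Fmo2 (3.81 ± 0.827), Adh1 (1.79 ± 0.837), Aox1 (1.60 ± 0.247), Fmo5 (1.53 ± 0.0878) and Inmt (0.522 ± 0.0964). The values of Adh1, Aox1 and Fmo5 overlapped there, and Inmt stood below all others.

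**Figure D2:**
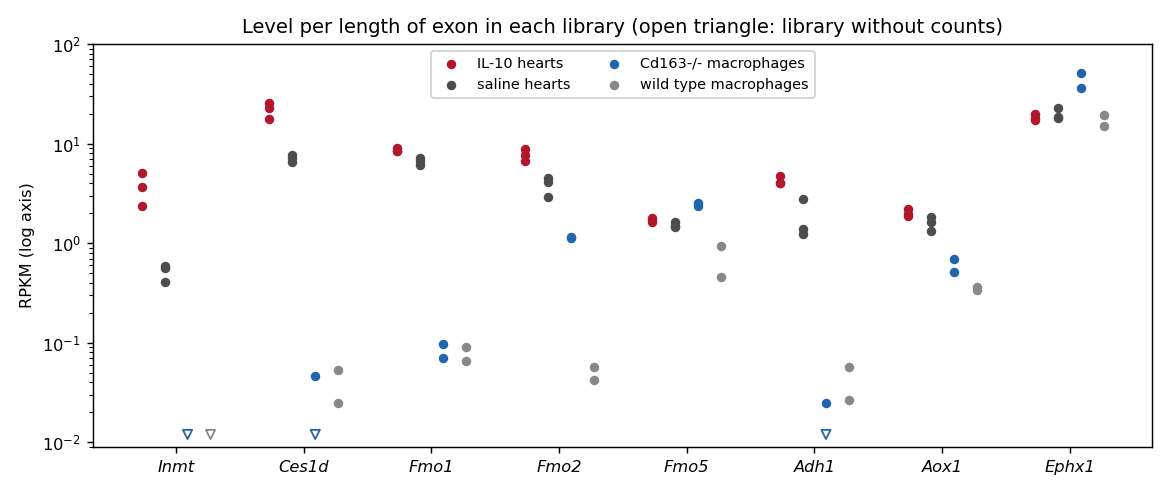
RPKM of each gene (log axis) in every library: IL-10 hearts (red), saline hearts (dark grey), Cd163-/- macrophages (blue) and wild-type macrophages (light grey), with an open triangle for a library without counts. In macrophages Ephx1 stands far above the other 7 genes, and Inmt has no count.

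Ephx1 was by far the most abundant of the 8 genes in macrophages. It was at 43.4 ± 10.4 RPKM in knockout and 17.1 ± 3.08 RPKM in wild-type macrophages (SD, n = 2 each), while each of the other 7 was below 3 RPKM in every macrophage library. Next came Fmo5 (2.45 ± 0.162 RPKM in knockout and 0.695 ± 0.334 RPKM in wild type), Fmo2 (1.14 ± 0.0218 in knockout and 0.0495 ± 0.0101 in wild type) and Aox1 (0.606 ± 0.124 in knockout and 0.349 ± 0.0183 in wild type, SD, n = 2 each). In knockout macrophages these levels lay further apart than their spread, while in wild-type macrophages Aox1 stood above Fmo2, and Fmo5 differed from Aox1 by little more than its own SD. Tissue and table cannot be told apart between hearts and macrophages, so these levels are set side by side without a test. Only 4 of the 8 genes, Fmo2, Fmo5, Aox1 and Ephx1, passed the filter on low counts in macrophages. Of the 3 that were not picked on these libraries, 2 rose (Fmo5 and Ephx1) and 0 fell at an edgeR adjusted p under 0.05, beside 13.1% of all 13861 tested genes called higher and 13.3% called lower (26.4% in either direction). At an unadjusted p under 0.05 all 3 were higher. Values of the knockout libraries lay wholly above those of the wild type for all 3, beside 35.3% of all tested genes.

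Ephx1 had 1988 and 1266 counts in knockout macrophages, against 634 and 459 in wild-type macrophages, or 99.0 and 70.3 CPM in knockout and 37.7 and 29.2 CPM in wild type. Both knockout libraries were well above both wild-type libraries, and knockout replicate 1 was the higher. Ephx1 rose by 1.34 on the log2 scale (SE 0.21, edgeR adjusted p = 0.00893). Without knockout replicate 1 the value was 1.07 and the call was lost (edgeR adjusted p = 0.0633). The soluble epoxide hydrolase gene Ephx2 was at 2.48 ± 1.07 CPM in knockout and 1.72 ± 0.0919 CPM in wild-type macrophages (SD, n = 2 each), and its log2 fold change of 0.53 did not pass (edgeR adjusted p = 0.352).

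Fmo2 had 127 and 117 counts in knockout macrophages, against 4 and 5 in wild-type macrophages, or 6.33 and 6.50 CPM in knockout and 0.238 and 0.318 CPM in wild type. The knockout libraries were close to each other, and the wild-type libraries were just above the level of 3 counts. The log2 fold change was 4.50 (SE 0.34), from 4.30 to 4.71 with any library left out. None of its stretches of 50 bases occurs in transcripts of another gene.

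Fmo5 had 266 and 262 counts in knockout macrophages, against 89 and 41 in wild-type macrophages, or 13.3 and 14.6 CPM in knockout and 5.29 and 2.61 CPM in wild type. The wild-type libraries stood well apart from each other, but both were far below the knockout libraries, which were close together. Fmo5 rose by 1.81 on the log2 scale (SE 0.33, edgeR adjusted p = 0.0137), and the call was lost without knockout replicate 1 (1.88, adjusted p = 0.0858) or 2 (1.73, adjusted p = 0.0779). It held without wild-type replicate 1, at 2.41, and without wild-type replicate 2, at 1.39. Fmo1 stayed near the floor, with 9 and 11 counts in knockout and 7 and 9 in wild-type macrophages. The ratio of Fmo2 to Fmo1 counts was 14.1 and 10.6 in knockout and 0.571 and 0.556 in wild-type macrophages.

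Aox1 had 121 and 81 counts in knockout macrophages, against 53 and 46 in wild-type macrophages, or 5.26 ± 1.08 CPM in knockout and 3.04 ± 0.159 CPM in wild type (SD, n = 2 each). The groups did not overlap, but the log2 fold change of 0.79 (SE 0.26) did not pass (edgeR adjusted p = 0.0715). It passed with scaling by library size alone (0.97, edgeR adjusted p = 0.0445) and without the filter on low counts (0.79, edgeR adjusted p = 0.0305). Aox3, its neighbour on the chromosome, had 21 and 16 counts in knockout and 2 and 3 in wild-type macrophages (edgeR adjusted p = 0.0176), a call lost with any of the 4 libraries left out (adjusted p up to 0.131) and with DESeq2 (adjusted p = 0.0585).

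The remaining genes of the 8 were not detectable, or barely, at this depth. Inmt had 0 counts in all 4 macrophage libraries, Ces1d had 0 and 2 counts in knockout and 1 and 2 in wild type, and Adh1 had 0 and 1 in knockout and 1 and 2 in wild type. The pair that was far higher in IL-10 hearts, Inmt and Ces1d, thus gave no measurable value for the knockout comparison. Fmo2 was higher in both comparisons, with log2 fold changes of 4.50 in macrophages and 1.01 in hearts, and the difference between them was not tested.

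**Figure D3:**
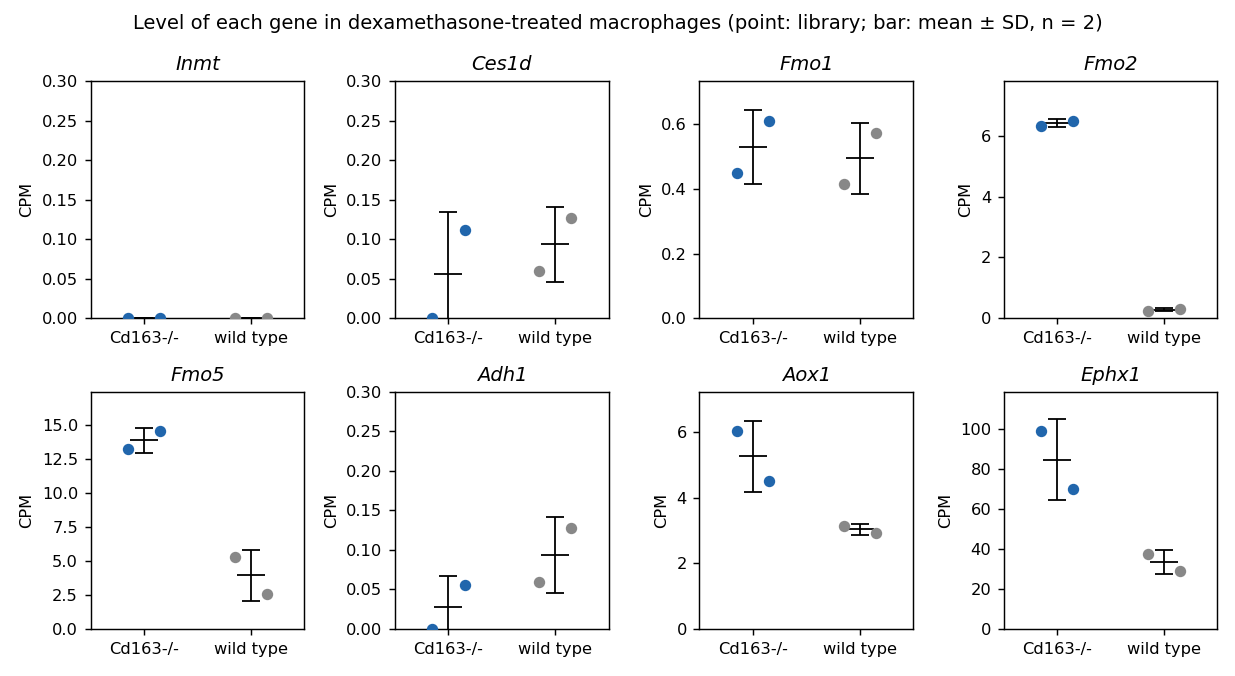
Level of each gene in CPM (vertical axes, from 0, with their own scales) in the 2 Cd163-/- (blue) and the 2 wild-type (grey) macrophage libraries, each point a library and each bar the mean ± SD. Knockout points lie above wild-type points for Fmo2, Fmo5, Aox1 and Ephx1, and the panels of Inmt, Ces1d, Fmo1 and Adh1 stay under 0.7 CPM.

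**Figure D4:**
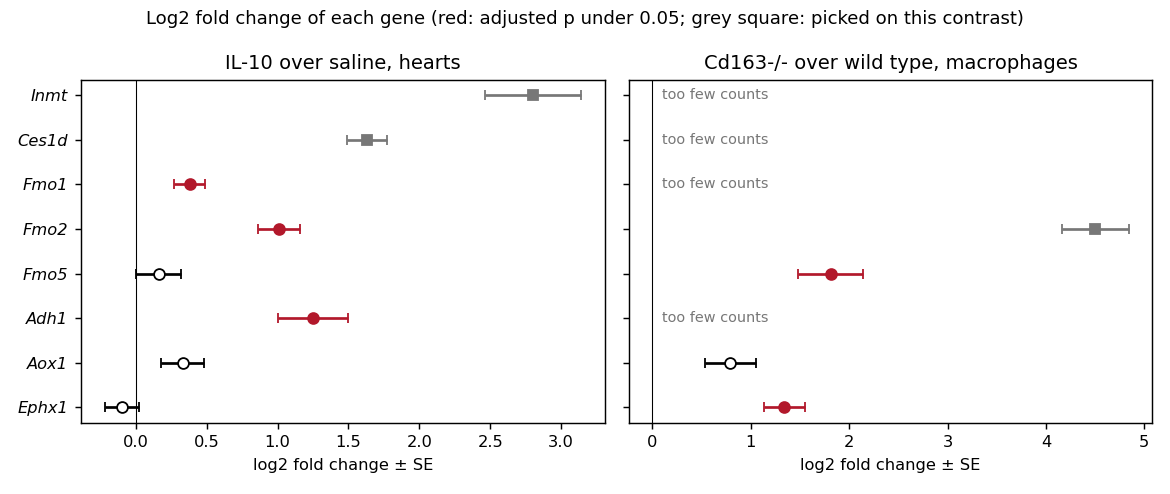
Log2 fold change ± SE of each gene, IL-10 over saline in hearts (left) and Cd163-/- over wild type in macrophages (right), on axes of different range. Red points passed at an edgeR adjusted p under 0.05, open points did not, and grey squares mark genes picked on that contrast and not tested.

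Markers of other cell types differed between the groups in both directions. Of 11 mesothelial markers 8 rose in knockout macrophages and 0 fell, and their summed level was 378 to 502 CPM in knockout and 118 to 187 CPM in wild-type macrophages. Upk3b, a mesothelial surface protein gene, was at 125 ± 19.9 CPM in knockout and 53.2 ± 15.5 CPM in wild type (SD, n = 2 each). Of 9 tested fibroblast markers 7 rose and 1, Pdgfra, fell, with a sum of 3211 to 3711 CPM in knockout and 1576 to 2277 CPM in wild type. Of 6 tested mural cell markers 2 rose, with a sum of 427 to 725 CPM in knockout and 191 to 250.3 CPM in wild type. Of 8 tested cardiomyocyte markers 0 rose and 1, Atp2a2, fell (log2 fold change -0.63, edgeR adjusted p = 0.0326). That list summed to 329 to 357 CPM in knockout and 456 to 577 CPM in wild type. No B cell or T cell marker had enough counts to be tested. Both tested genes of the mast cell and neutrophil list fell, S100a8 by 2.58 on the log2 scale (edgeR adjusted p = 0.013) and the receptor gene Csf3r by 1.71 (edgeR adjusted p = 0.0349). The mast cell genes of that list had too few counts to be tested. The list of 10 summed to 50.7 to 99.5 CPM in knockout and 167 to 330 CPM in wild type. Most of that was Csf3r, at 71.3 ± 34.6 CPM in knockout and 232 ± 107 CPM in wild type (SD, n = 2 each). Hp, the haptoglobin gene and the 1 tested liver marker, had 309 and 476 counts in knockout and 5317 and 20184 in wild type, a log2 fold change of -5.26 (edgeR adjusted p = 0.00673). The summed adipocyte, lung and endothelial lists overlapped between the groups. Of the 12 macrophage markers 3 rose (C1qa, C1qc and Mrc1) and 2 fell (Cd14 and Adgre1). The list summed to 25810 to 27060 CPM in knockout and 26889 to 32202 CPM in wild type. Most of that was Lyz2, at 16930 ± 146 CPM in knockout and 21028 ± 2897 CPM in wild type (SD, n = 2 each). Cd14 was at 84.0 ± 9.32 CPM in knockout and 847 ± 170 CPM in wild type (SD, n = 2 each). Its log2 fold change was -3.33 (edgeR adjusted p = 0.000758), and that of Adgre1 was -0.80 (edgeR adjusted p = 0.0273). The part of these cells in the values of Fmo2, Fmo5, Aox1 and Ephx1 was not tested.

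Among the other pathway genes in macrophages, 5 of 16 tested alcohol and aldehyde dehydrogenases rose and 0 fell, with a median log2 fold change of 0.52, beside 0.01 over all tested genes. Aldh1a1 was at 130 ± 65.7 CPM in knockout and 40.6 ± 10.4 CPM in wild-type macrophages (SD, n = 2 each), a log2 fold change of 1.68 (SE 0.37, edgeR adjusted p = 0.0242). Aldh9a1, which acts on aminoaldehydes, rose by 0.74 (edgeR adjusted p = 0.00722) and Aldh6a1 by 0.75 (edgeR adjusted p = 0.0183), and the other calls were Aldh1a7 and Aldh7a1. None of the 5 calls remained without knockout replicate 1 (edgeR adjusted p from 0.0703 to 0.252), 3 were lost without knockout replicate 2, 2 without wild-type replicate 1 (Aldh1a7 and Aldh7a1) and 1 without wild-type replicate 2 (Aldh7a1). The value of Aldh1a1 was 1.04 without knockout replicate 1, and Aldh7a1 was not called by DESeq2 (adjusted p = 0.081) or limma-voom (0.0524). The list had 8 calls higher with upper-quartile scaling and 8 with library size alone.

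Among small-molecule methyltransferases 2 of 8 tested genes rose in knockout macrophages and 0 fell, and 4 were called higher with upper-quartile scaling or library size alone. Gamt, of creatine synthesis, rose by 0.96 (edgeR adjusted p = 0.0443), a call lost when wild-type replicate 2 or either knockout library was left out (edgeR adjusted p from 0.113 to 0.213). In the methionine cycle 3 of 10 tested genes rose (Mtr, methionine synthase, by 0.93, Adk by 0.80 and Ahcyl2 by 0.54) and 2 fell (Mat2a, of S-adenosylmethionine synthesis, by 0.80 and Mtrr by 0.59). All 5 of these calls were lost without knockout replicate 1 (edgeR adjusted p from 0.0563 to 0.195) or knockout replicate 2 (0.0628 to 0.165), and those of Ahcyl2 and Mtrr also without wild-type replicate 2 (0.0924 to 0.116). With library size alone 6 genes of the list were called higher and 1 lower, and Mtrr was lost (edgeR adjusted p = 0.0912), as it was with upper-quartile scaling (0.0679).

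Of 9 tested molybdenum enzymes and cofactor genes other than Aox1, 3 rose (Aox3, Xdh and Suox) and 2 fell (Mocs1 and Gphn). Mocs1, the first step of cofactor synthesis, was at 36.4 ± 3.99 CPM in knockout and 99.3 ± 6.60 CPM in wild type (SD, n = 2 each), a log2 fold change of -1.45 (edgeR adjusted p = 0.00187) that passed with any library left out. The other 4 calls were lost when either knockout library was left out (edgeR adjusted p from 0.0884 to 0.182) or wild-type replicate 2 (0.0527 to 0.0872), and those of Aox3 and Suox also without wild-type replicate 1 (0.0781 to 0.0812). Suox was not called by DESeq2 (adjusted p = 0.0623), nor Gphn with library size alone (edgeR adjusted p = 0.0597). Of 7 tested esterases, Nceh1, a cholesteryl ester hydrolase, rose by 1.28 (edgeR adjusted p = 0.0143) and Esd fell by 1.26 (edgeR adjusted p = 0.00383), and both calls were lost when either knockout library was left out (edgeR adjusted p from 0.0517 to 0.0885).

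Of 12 tested cytochromes P450 and partners 4 rose and 4 fell in knockout macrophages, and with library size alone 4 were called higher and 1 lower. Cyp2s1 had 6.92 ± 1.14 CPM in knockout and 0.573 ± 0.45 CPM in wild type (SD, n = 2 each), a log2 fold change of 3.56 (SE 0.48, edgeR adjusted p = 0.00595). Its value was 4.73 without wild-type replicate 1 and 2.94 without wild-type replicate 2. Cyp2d22 rose by 1.78 (edgeR adjusted p = 0.011) and Por, the reductase that passes electrons to these enzymes, by 0.86 (edgeR adjusted p = 0.0126). All 8 calls were lost without knockout replicate 1 (edgeR adjusted p from 0.0593 to 0.173), and 6 without knockout replicate 2. Of 6 tested conjugating enzymes, Sult1a1, a sulphotransferase, rose by 2.47 (edgeR adjusted p = 0.0179) and Papss2, which makes its sulphate donor, fell by 1.00 (edgeR adjusted p = 0.005), both lost without knockout replicate 1 (0.0603 to 0.109), and Sult1a1 also without knockout replicate 2 (0.0796). The value of Sult1a1 was 3.63 without wild-type replicate 1 and 1.84 without wild-type replicate 2, and 3 genes of the list were called higher with library size alone, against 2 with upper-quartile scaling.

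Of 15 tested genes in the list of receptors, sensors and other transcription factors, 5 rose and 5 fell in knockout macrophages. Cebpa was at 180 ± 4.26 CPM in knockout and 47.8 ± 6.88 CPM in wild type, a log2 fold change of 1.91 (edgeR adjusted p = 0.00113), and Cebpb was at 75.5 ± 7.67 CPM in knockout and 199 ± 21.1 CPM in wild type (SD, n = 2 each), a log2 fold change of -1.40 (edgeR adjusted p = 0.00259). Both passed with any library left out. Nr3c1, the glucocorticoid receptor through which dexamethasone acts, was at 91.2 ± 3.83 CPM in knockout and 229 ± 35.0 CPM in wild type (SD, n = 2 each), and its fall of 1.33 (edgeR adjusted p = 0.00353) was lost without knockout replicate 1. Of the 10 calls, 6 were lost without knockout replicate 1 (edgeR adjusted p from 0.0547 to 0.139) and 6 without knockout replicate 2 (0.0693 to 0.141), and 1, of Rxrb, without wild-type replicate 2 (0.0665).

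In the triglyceride list 2 of 13 tested genes rose (Pnpla2 by 1.30, edgeR adjusted p = 0.00557, and Plin2 by 0.77, 0.0335) and 2 fell (Mgll, monoglyceride lipase, by 1.08, edgeR adjusted p = 0.015, and Hilpda by 0.58, 0.0245). The call of Pnpla2 passed with any library left out, and the other 3 were lost when either knockout library was left out (edgeR adjusted p from 0.0501 to 0.178), and that of Hilpda also with library size alone (0.073). Nearest to the profile of Fmo2 over the 4 macrophage libraries, among 11709 candidate genes, were Gpr34 (root mean square difference 0.303 in log2 CPM), Cxcr3 (0.323) and P2ry12 (0.349), all receptors of the cell surface. P2ry12 averaged 22.5 ± 2.61 CPM in knockout and 2.03 ± 0.271 CPM in wild-type macrophages (SD, n = 2 each). Gpr34 averaged 3.89 CPM and Cxcr3 4.08 CPM in knockout macrophages. Each was at 0.0912 CPM in wild type, under the level of 3 counts. These genes were selected for their likeness to Fmo2, so the likeness is a description.

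**Figure D5:**
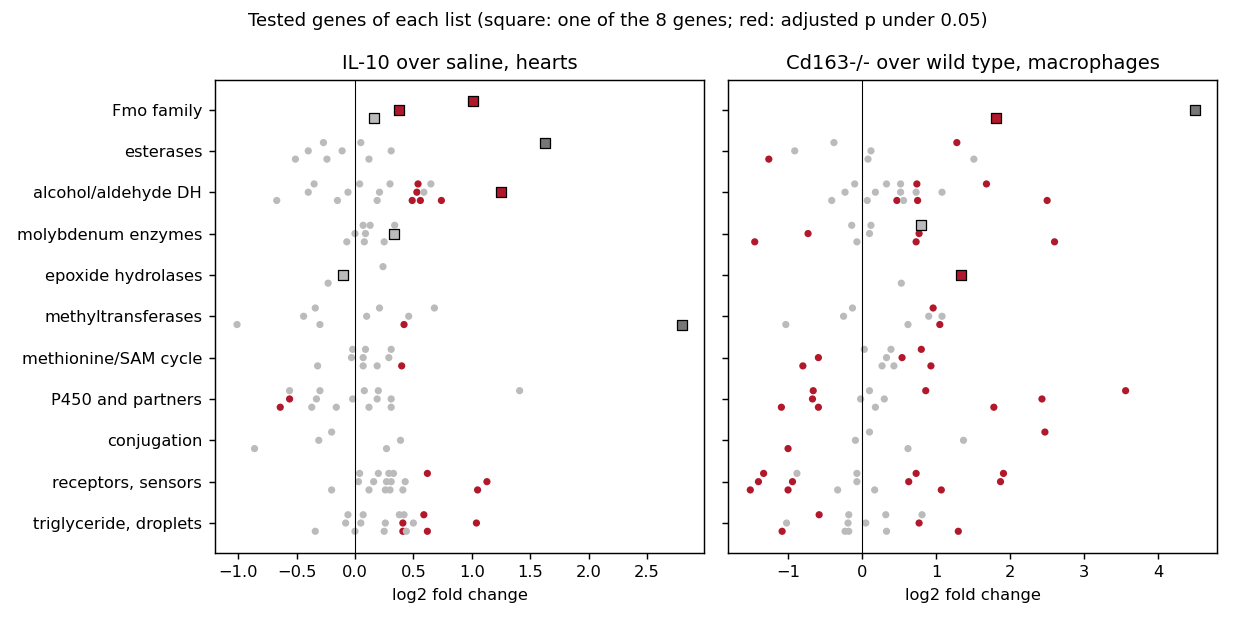
Log2 fold change of every tested gene of 11 pathway lists, IL-10 over saline in hearts (left) and Cd163-/- over wild type in macrophages (right), on axes of different range. Squares are genes of the 8, red marks an edgeR adjusted p under 0.05, light grey marks genes that did not pass, and dark grey squares are genes picked on that contrast; in hearts the red points of the dehydrogenase, sensor and triglyceride lists all lie above 0.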

How the data were processed

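The deposited values were whole-number counts per Ensembl gene, in a table of 6 hearts and a table of 4 macrophage libraries. The authors made them, per the submitters' processing notes, with the aligner HISAT2 (2.2.1) and the counter featureCounts, whose version is not given in the sources used here. The notes list both GRCm39 and mm10, so the build is not settled, and coordinates are those of GENCODE M21 on GRCm38, which named 52081 of 55357 identifiers. Per the labels' protocols, libraries were made with a kit for poly(A) RNA that does not mark the strand, and the protocol names livers as the source of RNA.

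The 2 tables were fitted separately with edgeR 4.0.16 in R 4.3.3: filterByExpr (minimum count 10, minimum total 15), TMM scaling, quasi-likelihood test, Benjamini-Hochberg adjustment over all tested genes, call at an adjusted p under 0.05. SE was derived from the fold change and the F statistic of its test. The 8 genes and all lists were chosen with earlier results of these data known. Named are the 8 genes, per list up to 3 tested genes with the smallest p, Fmo, Ces and Aox family genes beside them, and the 3 nearest profiles; other listed genes were named after their values were seen. Some genes that this rule names are not reported here. No 2 replicates agreed within sampling noise. Chi-square per degree of freedom was 53 for the wild-type macrophage pair, 20.9 for the knockout pair and 10.7 to 22.1 for pairs of hearts. On simulated data with 100 genes changed at each size, 79 changes of 2-fold and 95 of 4-fold were found among 13718 genes for hearts, with 4 false calls. For macrophages 55 and 94 were found among 13861 genes, with 10 false calls. Each simulated gene had the spread fitted for its level, the same in both groups. Real genes and groups differ in spread, so these numbers need not hold for the data. Alternatives were other scalings, filters and tests (DESeq2 1.42.0, limma 3.58.1), a replicate block, no mitochondrial genes and each library left out. Where 1 macrophage library of a group was left, its spread was taken from the other group. Without a knockout library that was the wider spread of the wild-type pair. A call lost there does not by itself show dependence on that library.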

Additional observations from a re-analysis of the deposited data

How the results depend on the processing

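Each value of the 8 genes kept its direction under every alternative except Ephx1 in hearts, at 0.01 without saline replicate 2 (-0.17 to 0.01 over the hearts left out). For Fmo1 in hearts the call was lost with upper-quartile scaling (0.33), library size alone (0.32) and the replicate block (0.38), and the value was 0.34 to 0.43 with a heart left out. In macrophages Fmo2 was at 4.67 with library size alone and 4.30 to 4.71 with a library left out, Aox1 passed with library size alone (0.97) and without a filter (0.79), and with a library left out Fmo5 was at 1.39 to 2.41 and Ephx1 at 1.07 to 1.56. Causes were not tested.

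Leaving out a library gave 450 to 1082 genes called higher and 447 to 1012 lower in hearts, and 360 to 1838 higher and 374 to 1973 lower in macrophages, with the lowest counts without IL-10 replicate 2 and knockout replicate 1. Counts moved by over 1.5 times without saline replicate 1 (451 higher, 561 lower), saline replicate 3 (599, 548), IL-10 replicate 1 (620 higher) or IL-10 replicate 2 (450, 447), and without knockout replicate 1 (360, 374) or 2 (710, 595). Library size alone gave 549 genes called higher in hearts and 1220 lower in macrophages. The share of higher among called genes was 50.6% in hearts, against 39% with upper-quartile scaling and 35.6% with library size alone, and 49.6% in macrophages, against 62.2% and 68.6%. The median of all genes in macrophages then moved to 0.125 and 0.188 on the log2 scale, and 0.012 with TMM. Without a filter 2680 genes were called higher in macrophages. Of 616 counts of calls in lists under an alternative, 107 were more than 1.5 times off. The 616 include lists without a call in either fit, which count as unmoved.

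The labels do not state whether replicate numbers pair the samples. Deviations from the group mean correlated at -0.179, 0.0421 and 0.0034 in same-numbered hearts, and at -0.113 in same-numbered macrophages. With 2 libraries in each macrophage group, crossing the numbers only reverses the sign. So few libraries cannot tell whether same-numbered samples shared a day or batch. With the replicate block, 772 genes were called higher and 751 lower in hearts and 1308 higher and 1348 lower in macrophages. Besides Fmo1, the block ended the calls of the pathway genes Pnpla2 in hearts and Aldh1a7, Aldh7a1, Xdh, Suox, Ahcyl2, Mtrr, Cyb5b, Cyp4v3, Rxra and Plin2 in macrophages. With crossed numbers, chosen after seeing the data, the macrophages gave 2395 higher and 2200 lower. Inmt, Ces1d, Fmo1 and Adh1 failed the filter on low counts in macrophages, whose libraries had higher total counts than those of hearts. The reason for their low counts was not tested.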
